A study of Schizosaccharomyces pombe with 6 samples.

Results

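The genes described here encode subunits of RNA polymerase II (*rpb* genes), of Mediator (*med* genes) and of TFIID (*taf* genes, for TBP-associated factors) in the fission yeast *Schizosaccharomyces pombe*. They were chosen by name: every protein coding gene of the deposited tables called *rpb*, *med* or *taf* followed by digits. The rule uses no measured value, though the choice was made with earlier results of these data known. It gave 36 of the 6291 counted genes, of which 11 are *rpb*, 11 *med* and 14 *taf* genes. RNA was sequenced from 6 cultures of 1 strain, *nup211-so*, in which the thiamine-repressible P81nmt1 promoter, placed with the *ura4*+ marker, drives *nup211*, the gene of a nuclear pore basket protein. This h+ strain, whose *nup211::P81nmt1 ura4*+ allele is combined with *leu1-32*, *ura4-D18* and *ade6-M210*, was used in both groups. The 3 cultures without thiamine grew in EMM minimal medium with adenine and leucine, and the 3 labelled thiamine grew in the same medium with 30 μM (10 μg/mL) thiamine for 24 hours, were washed, and grew in fresh thiamine medium for another 24 hours. No strain with the natural *nup211* promoter was analysed here, so an effect of thiamine itself and an effect of *nup211* repression cannot be told apart. In such bulk samples fewer cells of a kind and less RNA per cell cannot be told apart either.

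RNA polymerase II is the enzyme that transcribes protein coding genes, with Rpb1 and Rpb2 forming its active centre and the smaller subunits arranged around them. TFIID, made of the TATA-binding protein and the TAFs, recognises core promoters and starts the assembly of the initiation complex, and Mediator passes signals from gene-specific activators to the polymerase. Several polymerase subunits also serve RNA polymerases I and III, and in budding yeast several TAFs also serve SAGA, a histone-modifying coactivator.

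Libraries held 37195197 to 48815139 counts. Ribosomal RNA genes took 41.2% to 49.0% of each library without thiamine, against 46.3%, 28.7% and 24.6% of replicates 1 to 3 labelled thiamine. The targeted gene, *nup211*, had 477, 590 and 473 counts without thiamine and 644, 551 and 655 counts with the label. Scaled by TMM, edgeR's trimmed mean of M-values, to counts per 1000000 (CPM), its level was 13.8 ± 1.51 without and 12.3 ± 0.887 CPM with the label (SD, n = 3 each). Its log2 fold change of -0.17 (standard error, SE, 0.11) did not pass the quasi-likelihood test of edgeR, adjusted over all genes by the method of Benjamini and Hochberg (adjusted p = 0.199) and used throughout. With library totals the value was 0.40, and other genes overlap 87.0% of *nup211*. Every direction below therefore compares the labels, thiamine against none. Levels below are means ± SD over the 3 libraries of a group, first without thiamine and then with the label. The marker gene *ura4* fell from 79.4 ± 5.10 to 23.6 ± 2.36 CPM (log2 fold change -1.75).

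Promoter sequences are shown for the 4 polymerase II genes that rose together, for *taf1*, the member with the largest rise, and for *med18*, the tested member with the largest fall. Each is the 250 bases before the gene start annotated by RefSeq on the ASM294v3 assembly, written 5′ to 3′ on the strand of the gene. Capitals mark the letters of the TATA box motif, TATAAA, or its reverse complement TTTATA, which overlap one another in *rpb1*. They were marked at any distance from the start, so a marked stretch need not be a working TATA box.
*rpb1* (chrII:1590890-1591139, plus strand): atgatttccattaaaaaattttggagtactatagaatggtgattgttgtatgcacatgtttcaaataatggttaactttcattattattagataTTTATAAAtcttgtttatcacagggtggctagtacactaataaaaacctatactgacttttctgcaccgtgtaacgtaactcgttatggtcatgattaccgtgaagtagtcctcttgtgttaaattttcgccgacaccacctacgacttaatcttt
*rpb2* (chrI:850386-850635, plus strand): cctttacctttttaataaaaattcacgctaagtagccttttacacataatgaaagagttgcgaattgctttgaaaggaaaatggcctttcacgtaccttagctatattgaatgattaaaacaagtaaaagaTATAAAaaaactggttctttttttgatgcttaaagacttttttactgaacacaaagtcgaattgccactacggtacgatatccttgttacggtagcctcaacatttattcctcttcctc
*rpb4* (chrII:1055259-1055508, plus strand): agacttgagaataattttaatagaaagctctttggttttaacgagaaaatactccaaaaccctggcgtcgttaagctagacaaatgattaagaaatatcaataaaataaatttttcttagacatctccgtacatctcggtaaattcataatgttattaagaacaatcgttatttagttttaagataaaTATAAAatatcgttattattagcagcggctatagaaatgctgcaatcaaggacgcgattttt
*rpb11* (chrI:1433676-1433925, plus strand): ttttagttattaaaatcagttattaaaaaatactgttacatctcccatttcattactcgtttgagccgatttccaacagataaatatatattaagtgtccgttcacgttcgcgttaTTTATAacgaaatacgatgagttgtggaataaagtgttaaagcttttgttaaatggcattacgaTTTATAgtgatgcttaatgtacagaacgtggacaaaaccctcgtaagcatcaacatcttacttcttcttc
*taf1* (chrI:837988-838237, plus strand): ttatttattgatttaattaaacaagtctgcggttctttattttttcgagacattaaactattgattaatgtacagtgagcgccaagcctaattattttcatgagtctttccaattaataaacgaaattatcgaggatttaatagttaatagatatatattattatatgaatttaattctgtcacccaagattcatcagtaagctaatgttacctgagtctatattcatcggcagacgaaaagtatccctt
*med18* (chrI:1504868-1505117, minus strand): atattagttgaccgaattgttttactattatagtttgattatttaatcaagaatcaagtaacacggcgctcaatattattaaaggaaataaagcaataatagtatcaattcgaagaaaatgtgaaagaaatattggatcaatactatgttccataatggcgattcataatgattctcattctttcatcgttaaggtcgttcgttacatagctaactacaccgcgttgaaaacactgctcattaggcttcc

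All 4 polymerase II promoters above held TATAAA or its complement, and the windows of *taf1* and *med18* held neither. Motifs were counted on both strands from 250 bases before to 50 bases after the RefSeq start. TATAAA lay in 19 of the 36 member windows and in 48.1% of 5038 protein coding windows. It was present in 8 of the 11 members that rose (*rpb1*, *rpb2*, *rpb4*, *rpb11*, *med13*, *med15*, *taf2* and *taf12*), in 3 of the 13 that fell (*rpb3*, *med7* and *taf5*) and in 7 of the 9 that did not pass the test. Over all protein coding genes the shares were 46.4% of those that rose, 48.3% of those that fell and 48.9% of those not called. Deposited and RefSeq starts differed by at most 50 bp in 25 members and by up to 732 bp in the others. From the deposited starts the counts were 7 of 11, 4 of 13 and 7 of 9. Of other motifs of fission yeast promoters, the HomolD box CAGTCAC (4.76% of windows) and the CRE core TGACGT (5.92%) lay in 0 member windows, and the MCB core ACGCGT (3.28%) lay in that of *med13* alone. These matches describe letters in a window and say nothing of a bound factor.

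Subunit genes of each complex split into genes that rose and genes that fell. Of the 36 members, 33 passed the filter on low counts, and 24 of these (72.7%) were called at an adjusted p under 0.05, against 69.8% of all 5434 genes tested. In all, 11 members rose, against 34.5% of all genes, and 13 fell, against 35.3%. The counts of called members are thus close to the background. The median log2 fold change of the members was 0.07, and that of all genes was -0.01. Changes of at least 2-fold were seen upward in 1 member (16.4% of all genes) and downward in 5 members (13.6%). The values of the groups did not overlap for 25 members (75.5% of all genes). By complex, 4 *rpb* genes rose and 4 fell of 9 tested, 3 *med* genes rose and 4 fell of 11, and 4 *taf* genes rose and 5 fell of 13.

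**Figure D1:**
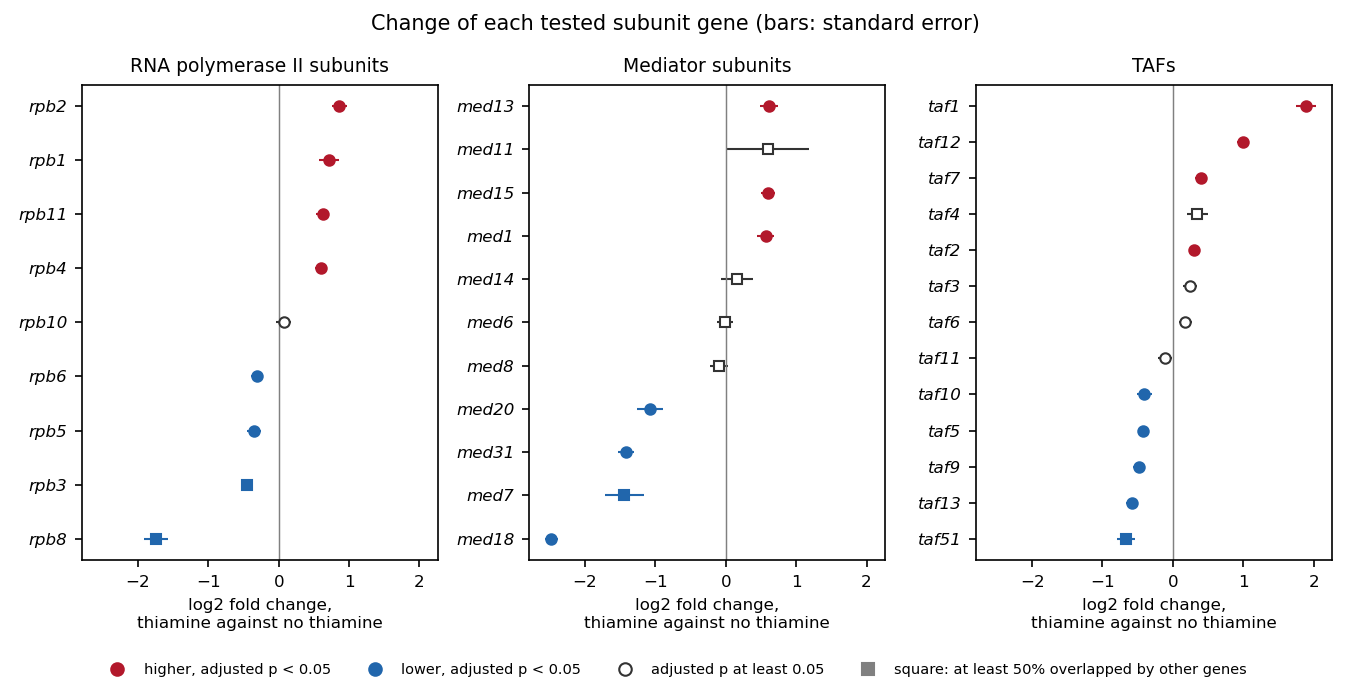
Log2 fold change of the 33 tested subunit genes, libraries labelled thiamine against those without, with the standard error as bars. Red points rose, blue points fell and open points did not pass an adjusted p of 0.05. Squares are genes overlapped over at least 50% of their length by other genes. Each complex holds genes on either side of 0, from -2.48 (*med18*) to 1.89 (*taf1*).

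The split depended on how libraries were scaled. With upper-quartile factors 7 members rose and 16 fell (25.2% and 47.5% of all genes). With library totals 18 rose and 5 fell (50.1% and 10.8%), and with library totals without ribosomal RNA 15 rose and 7 fell (46.9% and 22.0%). The median of all genes was -0.31, 0.57 and 0.31 under these 3 scalings. With trends of transcript length and GC content removed, 10 rose and 11 fell (33.1% and 34.8%). The 11 members that were called in 1 direction under all 14 alternatives tried were *rpb1*, *rpb2*, *rpb4*, *rpb11*, *taf1* and *taf12*, which rose, and *rpb8*, *med18*, *med20*, *med31* and *med7*, which fell. Each of the other 13 called members lost its call or changed sign in at least 1 alternative.

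**Figure D2:**
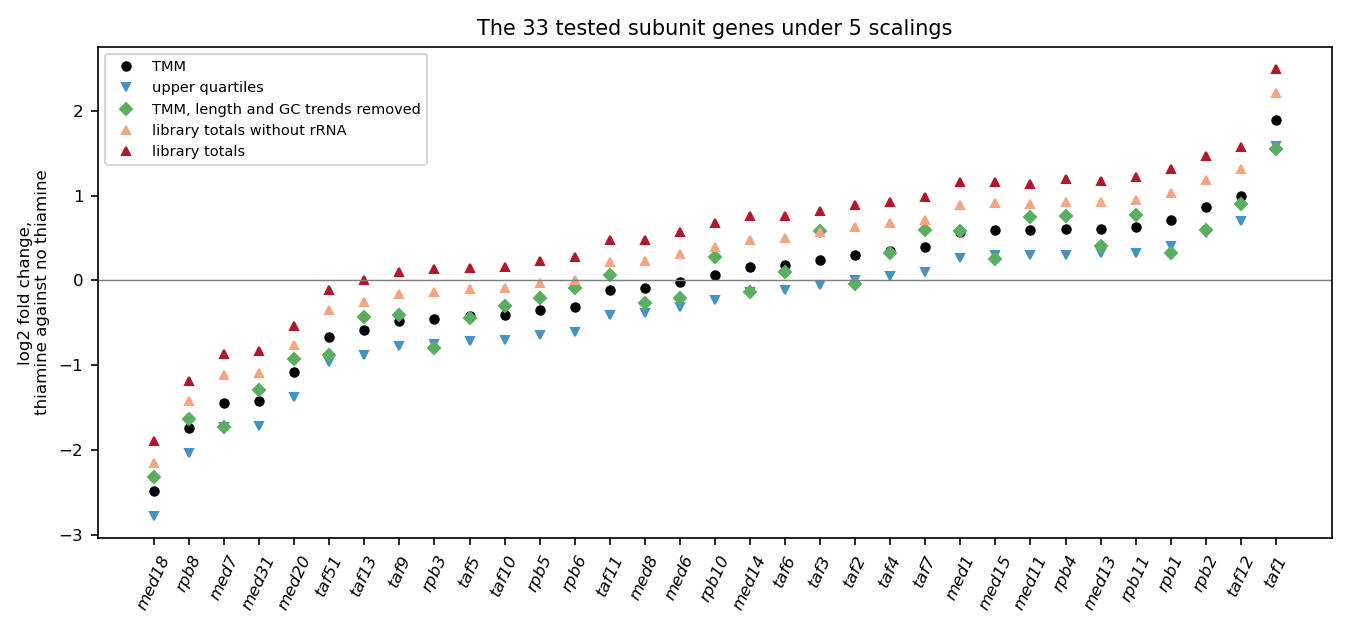
Log2 fold change of the 33 tested members (horizontal axis, ordered by the TMM value) under 5 scalings of the libraries. Library totals lie above TMM and upper quartiles below it for every gene shown. The 5 genes on the left and *rpb1*, *rpb2*, *rpb4*, *rpb11*, *taf1* and *taf12*, called under all 14 alternatives, stay on their side of 0. So do others, such as *med1* (0.27 to 1.16) and *taf51* (-0.96 to -0.11).

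In RNA polymerase II the genes of the catalytic core rose. *rpb1* (SPBC28F2.12, chrII:1591140-1596744) encodes the largest subunit, which carries the repeated C-terminal domain. It had 17693, 17253 and 15037 counts without thiamine and 31449, 31773 and 48519 counts with the label. All 3 labelled libraries were higher, replicate 3 most of all. Its level was 449 ± 13 without and 736 ± 142 CPM with the label (SD, n = 3 each), or a log2 fold change of 0.71 (SE 0.14, adjusted p = 0.0021). *rpb2* (SPAC23G3.01, chrI:850636-854385) encodes the second largest subunit and had 6185, 6291 and 5814 against 13381, 13378 and 18615 counts. These are 165 ± 3.57 and 299 ± 39.6 CPM, a log2 fold change of 0.86 (SE 0.11, adjusted p = 0.000137). The order of the libraries was that of *rpb1*, with replicate 3 highest among those labelled thiamine.

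Outside the core, *rpb11* and *rpb4* rose by similar amounts. Rpb11 pairs with Rpb3 in the assembly platform of the enzyme, and *rpb11* (SPAC3A12.07, chrI:1433926-1434842) had 795, 894 and 829 counts without and 1613, 1678 and 1988 with the label. Levels were 22.7 ± 1.74 and 35.0 ± 1.86 CPM, a log2 fold change of 0.62 (SE 0.09, adjusted p = 0.000273), and the groups did not overlap. *rpb4* (SPBC337.14, chrII:1055509-1056502), of the stalk beside the exit of the transcript, had 2190, 2126 and 1915 against 3874, 3871 and 5126 counts. Its level went from 56.0 ± 0.894 to 85.0 ± 8.65 CPM, a log2 fold change of 0.60 (SE 0.09, adjusted p = 0.000313). Of the partners of these 2 genes, *rpb3* fell and *rpb7*, of the stalk, had 7, 5 and 8 against 9, 12 and 9 counts, and was removed by the filter on low counts.

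*rpb3* (SPCC1442.10c, chrIII:1782897-1786998) had 3561, 3764 and 3339 counts without and 3379, 3421 and 3743 counts with the label, which overlap as raw counts. Scaled by TMM these were 95.9 ± 2.89 and 70.0 ± 1.05 CPM, without overlap, a log2 fold change of -0.45 (SE 0.07, adjusted p = 0.000383). The fall is one relative to other genes, and with library totals the value was 0.13 (adjusted p = 0.632). Other genes overlap 64.6% of *rpb3*.

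Of the 4 genes in the rule whose products are shared by polymerases I, II and III, 3 fell, against 35.3% of all genes, and the fourth was not called. *rpb8* (SPBC14C8.12, chrII:2223646-2224720) fell most of the tested *rpb* genes, from 412, 353 and 357 counts to 164, 163 and 123. Its level of 10.1 ± 0.777 CPM without thiamine was 3.35-fold that of 3.01 ± 0.635 CPM with the label (log2 fold change -1.75, SE 0.17, adjusted p = 3.13e-05), and every labelled library was below every other. Genes on either strand overlap 66.5% of it. *rpb5* (SPAC23C4.15, chrI:1054619-1055906) had 1909, 1572 and 1460 against 1680, 1528 and 2052 counts, or 44.4 ± 4.68 and 34.8 ± 3.13 CPM, and its log2 fold change was -0.35 (SE 0.10, adjusted p = 0.0148). This call was lost without replicate 1 of the cultures without thiamine (-0.27) and without replicate 2 of the labelled cultures (-0.29), where the adjusted p reached 0.0576. *rpb6* (SPCC1020.04c, chrIII:783037-784077), with 3349, 3811 and 3379 against 3736, 3727 and 4035 counts, went from 94.9 ± 6.69 to 76.4 ± 1.42 CPM (log2 fold change -0.31, SE 0.08, adjusted p = 0.00646). Small changes such as those of *rpb5* and *rpb6* turned upward with library totals, to 0.23 and 0.27, while *rpb8* stayed lower at -1.19. With length and GC trends removed the calls of *rpb5* and *rpb6* ended (-0.21 and -0.09). The 4 transcripts are all under 1000 bp, a class in which the median of all genes was -0.35. Transcripts of *rpb4* (817 bp) and *rpb11* (814 bp), which rose, are in that class too. *rpb10* had 2785, 3085 and 2696 against 3502, 3755 and 4990 counts, or 77.1 ± 4.14 and 80.9 ± 10.6 CPM, with overlapping groups and a log2 fold change of 0.07 (SE 0.10, adjusted p = 0.57). It was called higher with library totals (0.67). The remaining subunit of this kind, Rpb12, is encoded by *rpc10*, chosen after its values were seen, at -0.05 (adjusted p = 0.622).

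*rpb9*, whose product lies in the jaw and takes part in transcript proofreading, had 10, 3 and 6 counts without thiamine and 2, 0 and 1 with the label, under the filter. When the filter was dropped it was called lower (log2 fold change -2.93, which depends on the prior count at such counts, adjusted p = 0.0189). Its summed counts, 3 against 19, give a ratio of 0.117 per scaled library size (95% exact interval 0.0221 to 0.396, counting error only). *rpb7*, *rpb9* and *taf8*, the 3 members that the filter removed, are overlapped by other genes over at least 98.8% of their length. The counting program is not given in the sources used here, so how reads in shared stretches were counted is not known here, and values of overlapped genes are uncertain.

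Per kb of transcript, the *rpb* genes without thiamine were led by *rpb6* (113 CPM per kb), *rpb10* (101) and *rpb1* (84.3). With the label *rpb1* led with 138 CPM per kb, before *rpb10* (106), *rpb4* (104) and *rpb6* (91.2). On the TMM scale levels of *rpb10* did not differ between groups beyond their spread, while *rpb1* and *rpb4* rose and *rpb6* fell. With library totals *rpb10* and *rpb6* had log2 fold changes of 0.67 and 0.27. Levels per kb use the full transcript length, so they are uncertain for the 4 of 11 *rpb* genes overlapped over at least 50%.

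Within Mediator the largest changes were falls, in genes of the head and the middle module. *med18* (SPAC5D6.05, chrI:1503761-1504867) belongs to the head, where its product forms a movable jaw with that of *med20*. It had 1397, 1407 and 1278 counts without thiamine and 314, 300 and 380 counts with the label. No other tested member changed as much in either direction. Its level of 36.7 ± 0.303 CPM was 5.58-fold that of 6.58 ± 0.416 CPM (log2 fold change -2.48, SE 0.09, adjusted p = 2.19e-07), and no other counted gene overlaps it. *med20* (SPAC17G8.05, chrI:2350193-2351244) had 551, 539 and 469 against 384, 354 and 250 counts. This was a fall from 14.0 ± 0.397 to 6.63 ± 1.75 CPM (log2 fold change -1.08, SE 0.18, adjusted p = 0.000777), lowest in labelled replicate 3. Both partners of the jaw thus fell, by unequal amounts.

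The other head genes were not called. *med6*, with 372, 345 and 334 against 437, 417 and 562 counts, had 9.46 ± 0.379 and 9.36 ± 0.930 CPM (log2 fold change -0.01, SE 0.11, adjusted p = 0.916). *med8*, with 265, 276 and 231 against 327, 343 and 306 counts, had 6.93 ± 0.267 and 6.51 ± 0.755 CPM (log2 fold change -0.09, SE 0.13, adjusted p = 0.538). Other genes overlap 63.5% and 79.3% of these 2 genes, and the groups overlapped in both. *med11* had 12, 4 and 2 against 13, 8 and 16 counts, and its log2 fold change of 0.60 came with an SE of 0.59 (adjusted p = 0.392). For *med14*, the scaffold that joins the modules, 58, 92 and 65 against 89, 111 and 125 counts were 1.93 ± 0.450 and 2.15 ± 0.281 CPM (log2 fold change 0.16, SE 0.23, adjusted p = 0.558). Counts of *med11* were at most 16 in a library, and its SE was the largest of the tested members.

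In the middle module, *med7* and *med31*, whose products bind one another, fell by nearly the same amount. *med7* (SPBC14F5.08, chrII:4172360-4175788) had 175, 221 and 207 against 99, 134 and 65 counts, or 5.44 ± 0.773 and 2.01 ± 0.792 CPM (log2 fold change -1.44, SE 0.28, adjusted p = 0.00163). Other genes overlap 87.2% of it. *med31* (SPCP31B10.03c, chrIII:525859-526748), overlapped by none, had 525, 485 and 415 against 216, 228 and 279 counts. Its level went from 12.8 ± 0.838 to 4.78 ± 0.370 CPM (log2 fold change -1.42, SE 0.11, adjusted p = 9.71e-06). In both genes all 3 labelled libraries were below all 3 others. *med1* (SPAC2F7.04, chrI:537910-540012), of the same module, went the other way, with 456, 449 and 391 against 774, 759 and 1079 counts. These were 11.6 ± 0.293 and 17.2 ± 2.40 CPM (log2 fold change 0.57, SE 0.12, adjusted p = 0.00218).

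The genes of the kinase module and the tail within the rule rose. *med13* (SPAC589.02c, chrI:3095075-3098667) links the kinase module to the rest of Mediator and had 433, 368 and 338 against 870, 760 and 714 counts. Its level rose from 10.2 ± 0.914 to 15.6 ± 2.32 CPM (log2 fold change 0.61, SE 0.13, adjusted p = 0.00294). *med15* (SPBC146.01, chrII:996683-1000175), in budding yeast a tail subunit bound by activators, had 2837, 2628 and 2560 against 5818, 5427 and 5099 counts, or 72.2 ± 3.05 and 109 ± 12.9 CPM (log2 fold change 0.59, SE 0.10, adjusted p = 0.000688). Calls of *med13* and *med1* were lost with upper-quartile factors (adjusted p = 0.0726 and 0.0516), and that of *med15* with length and GC trends removed (adjusted p = 0.0878). Labelled replicates 1 and 3 stood in opposite order in *med15* (119 and 94.5 CPM) and *med1* (15.9 and 20.0 CPM).

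Per kb of transcript *med18* had the highest level of the *med* genes without thiamine, with 41.0 CPM per kb before *med15* (17.5), *med31* (13.1) and *med20* (12.5). With the label *med15* led with 26.4 CPM per kb, and *med18* (7.34) lay below *med1* (8.46). The order is uncertain for the 5 of 11 *med* genes overlapped over at least 50% of their length.

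Mediator genes with other names were counted from a list of general knowledge. Of 7 tested, 0 rose and 3 fell in edgeR's test, against 34.5% and 35.3% of all genes (0 rose also at an unadjusted p under 0.05 and in DESeq2's Wald test). These were *srb11*, the cyclin of the kinase module (-0.74, adjusted p = 0.00109), *pmc3*, which encodes Med27 (-0.55, adjusted p = 0.0032), and *srb8*, which encodes Med12 of the kinase module (-0.32, adjusted p = 0.0089). *srb10*, the kinase itself, had -0.23 (adjusted p = 0.145). Of the genes of the kinase module, *med13* was thus called higher and *srb8* and *srb11* lower. With library totals *srb8* and *pmc3* stood at 0.26 and 0.03 and *srb11* at -0.17 (adjusted p = 0.265, 0.932 and 0.575). *nut2*, which encodes Med10 and was chosen after its values were seen, fell by 1.08 on the log2 scale (adjusted p = 9e-05).

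**Figure D3:**
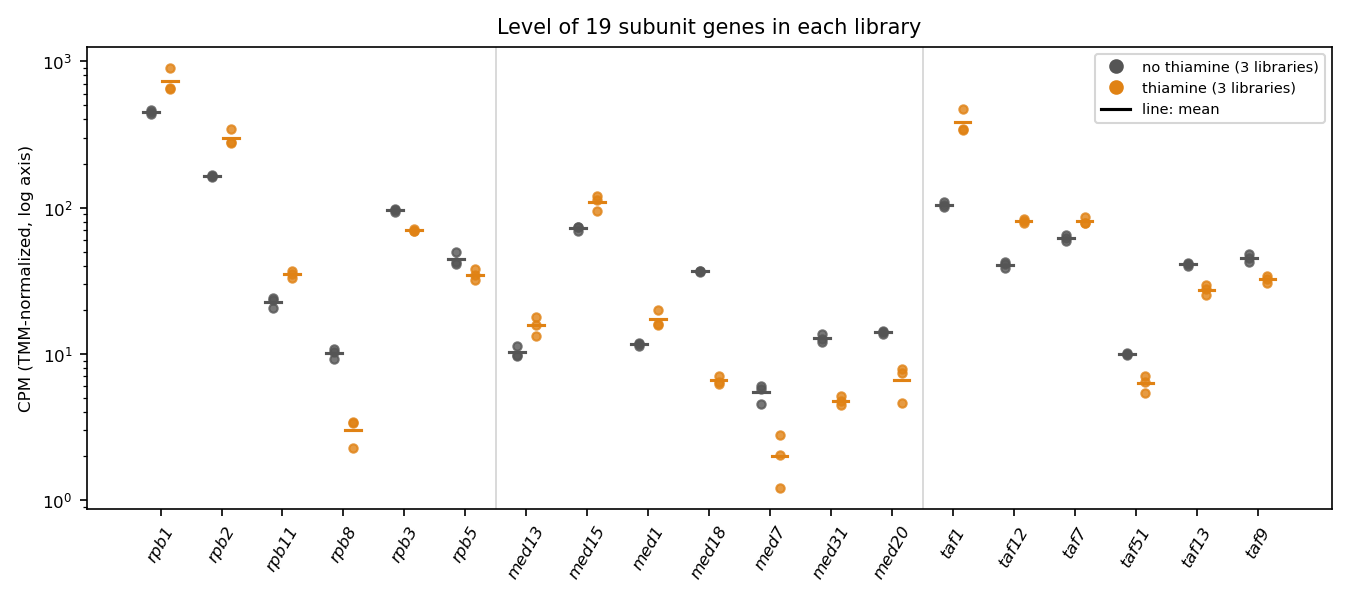
Level of 19 subunit genes in each library, in TMM-normalized CPM on a log axis, with libraries without thiamine in grey and libraries labelled thiamine in orange and lines at the mean of 3. The 19 genes were picked among called members whose groups do not overlap, as was so for 75.5% of all tested genes. Labelled replicate 3 is the highest point of *rpb1*, *rpb2* and *taf1*.

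In TFIID, *taf1* had the largest rise of all members. Taf1 binds the TATA-binding protein. *taf1* (SPAC2G11.14, chrI:838238-841562) had 3967, 4159 and 3471 counts without thiamine and 16734, 16274 and 25591 with the label. All labelled libraries were higher, replicate 3 by the most. Its level rose 3.70-fold from 104 ± 4.21 to 386 ± 76.9 CPM (log2 fold change 1.89, SE 0.14, adjusted p = 7.01e-06). The gene of the TATA-binding protein, *tbp1*, which the naming rule does not take, rose from 132 ± 11.9 to 708 ± 124 CPM (log2 fold change 2.42, SE 0.15, adjusted p = 2.57e-06). Without labelled replicate 3 and without each other library in turn, the value of *taf1* stayed between 1.70 and 1.97.

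*taf12* (SPAC15A10.02, chrI:3677989-3680028) rose next, from 1487, 1626 and 1411 to 3957, 3983 and 4226 counts. The level of 40.7 ± 1.89 CPM became 80.8 ± 2.31 CPM, with little spread in either group (log2 fold change 0.99, SE 0.07, adjusted p = 6.51e-06). Smaller rises were found in *taf7* and *taf2*. *taf7* (SPAC13F5.02c, chrI:2172410-2173787), whose product binds Taf1, had 2486, 2255 and 2145 against 3844, 3774 and 4684 counts, or 61.9 ± 2.90 and 81.4 ± 4.67 CPM (log2 fold change 0.40, SE 0.08, adjusted p = 0.00184). *taf2* (SPAC3A12.05c, chrI:1426054-1429966), which in other species contacts promoter DNA, had 1727, 1613 and 1471 against 2546, 2520 and 2995 counts, or 43.2 ± 1.52 and 53.4 ± 1.82 CPM (log2 fold change 0.31, SE 0.07, adjusted p = 0.00511). With upper-quartile factors neither passed the test (0.10 and 0.01), and *taf2* turned to -0.05 with length and GC trends removed.

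Called falls among the *taf* genes were all under 2-fold. *taf51* (SPBC15D4.14, chrII:3033707-3035939), described in the annotation as Taf5-like, had 375, 390 and 345 against 346, 306 and 289 counts, or 9.98 ± 0.215 and 6.28 ± 0.878 CPM (log2 fold change -0.67, SE 0.13, adjusted p = 0.00149). Other genes overlap 51.6% of it. *taf13* (SPCC1494.02c, chrIII:2317999-2319040) had 1610, 1573 and 1382 against 1355, 1208 and 1582 counts, or 41.0 ± 0.977 and 27.4 ± 2.12 CPM (log2 fold change -0.58, SE 0.08, adjusted p = 0.000285). *taf9* (SPAC12G12.05c, chrI:338302-339763) had 1738, 1621 and 1673 against 1580, 1646 and 1655 counts, or 45.3 ± 3.01 and 32.5 ± 1.79 CPM (log2 fold change -0.48, SE 0.08, adjusted p = 0.000902). In these 3 genes the groups were apart on the TMM scale, while their raw counts overlapped.

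*taf5* (SPCC5E4.03c, chrIII:640083-642535), the WD-repeat TAF of the core, and *taf10* (SPBC21H7.02, chrII:2255002-2256226) fell by similar amounts. *taf5* had 3852, 3834 and 3387 against 3789, 3575 and 3794 counts, or 99.5 ± 1.32 and 74.2 ± 3.75 CPM (log2 fold change -0.42, SE 0.07, adjusted p = 0.000793). *taf10* had 1569, 1623 and 1574 against 1701, 1661 and 1491 counts, or 42.9 ± 2.38 and 32.4 ± 4.11 CPM (log2 fold change -0.41, SE 0.11, adjusted p = 0.00789). With library totals the 5 falling *taf* genes lost their calls (adjusted p = 0.504 to 0.998), with *taf51* at -0.11, *taf13* at 0.00, and *taf9*, *taf5* and *taf10* at 0.10 to 0.16.

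The remaining *taf* genes were not called. *taf4*, overlapped over 90.9% of its length, had 230, 267 and 176 against 376, 332 and 453 counts, or 6.02 ± 0.944 and 7.68 ± 0.745 CPM (log2 fold change 0.35, SE 0.15, adjusted p = 0.0618). *taf3* had 333, 311 and 303 against 512, 450 and 562 counts, or 8.52 ± 0.343 and 10.1 ± 0.637 CPM (log2 fold change 0.25, SE 0.10, adjusted p = 0.061). In *taf3* the groups did not overlap, while in *taf4* they did. *taf6* had 4470, 4695 and 4454 against 7086, 7110 and 6642 counts, or 123 ± 6.23 and 139 ± 13.7 CPM (log2 fold change 0.18, SE 0.09, adjusted p = 0.121). *taf11* had 1280, 1375 and 1370 against 1672, 1471 and 1932 counts, or 36.3 ± 3.17 and 33.6 ± 2.68 CPM (log2 fold change -0.11, SE 0.10, adjusted p = 0.327). Scaled levels of *taf6* and *taf11* overlapped between the groups. *taf8* had 8, 6 and 8 against 7, 28 and 15 counts and was not tested.

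Many TAFs pair through histone folds, and the genes of a pair did not show 1 value. *taf12* rose (0.99) while its partner *taf4* had 0.35. *taf9* fell (-0.48) while *taf6* had 0.18, and *taf10* fell (-0.41) while *taf3*, in budding yeast a partner of Taf10, had 0.25. *taf13* fell (-0.58) while *taf11* had -0.11. Of the 5 TAFs that budding yeast shares between TFIID and SAGA, the genes *taf5*, *taf9* and *taf10* were called lower with TMM but not with library totals, *taf12* was called higher, and *taf6* was not called. Differences within a pair were not tested.

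Per kb of transcript, *taf13* (49.7), *taf6* (48.8), *taf5* (47.1) and *taf7* (46.0 CPM per kb) led the *taf* genes without thiamine, close to one another, and *taf1* had 32.5. With the label *taf1* had the highest level at 120 CPM per kb, before *taf7* (60.5) and *taf6* (55.2). Such levels are uncertain for the 3 of 14 *taf* genes overlapped over at least 50% of their length.

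Genes of the largest subunits of the other nuclear polymerases rose as well, a grouping that was not set in advance. Over all genes 34.5% rose, and the median log2 fold change was 0.33 for transcripts of at least 3000 bp. *nuc1* and *rpa2*, the largest and second largest subunits of RNA polymerase I, had log2 fold changes of 0.66 (adjusted p = 0.000137) and 0.65 (adjusted p = 5.97e-05). In RNA polymerase III, *rpc1* had 1.29 (adjusted p = 9.84e-06) and *rpc2* 0.85 (adjusted p = 0.000333). All 4 stayed above 0 under each scaling, and the call of *nuc1* was lost with length and GC trends removed (0.17, adjusted p = 0.0847). Of the polymerase I genes listed, 4 rose and 0 fell of 7 tested in edgeR's test, against 34.5% and 35.3% of all genes (2 were lower at an unadjusted p under 0.05, and 0 in DESeq2's Wald test). Another of these, *rpa34*, had the largest change (1.79) at under 1 CPM in each group, with other genes over all of its length. Of the polymerase III genes, 6 rose and 1 fell of 9 (77.8% called, against 69.8% of all genes), the fall being *rpc25*, of its stalk (-1.10, adjusted p = 0.00013). Of the 2 subunits shared by polymerases I and III, *rpc19* fell (-0.52, adjusted p = 0.00267) and *rpc40* had -0.05 (adjusted p = 0.586). *rpc19* moved to 0.05 with library totals (adjusted p = 0.855).

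**Figure D4:**
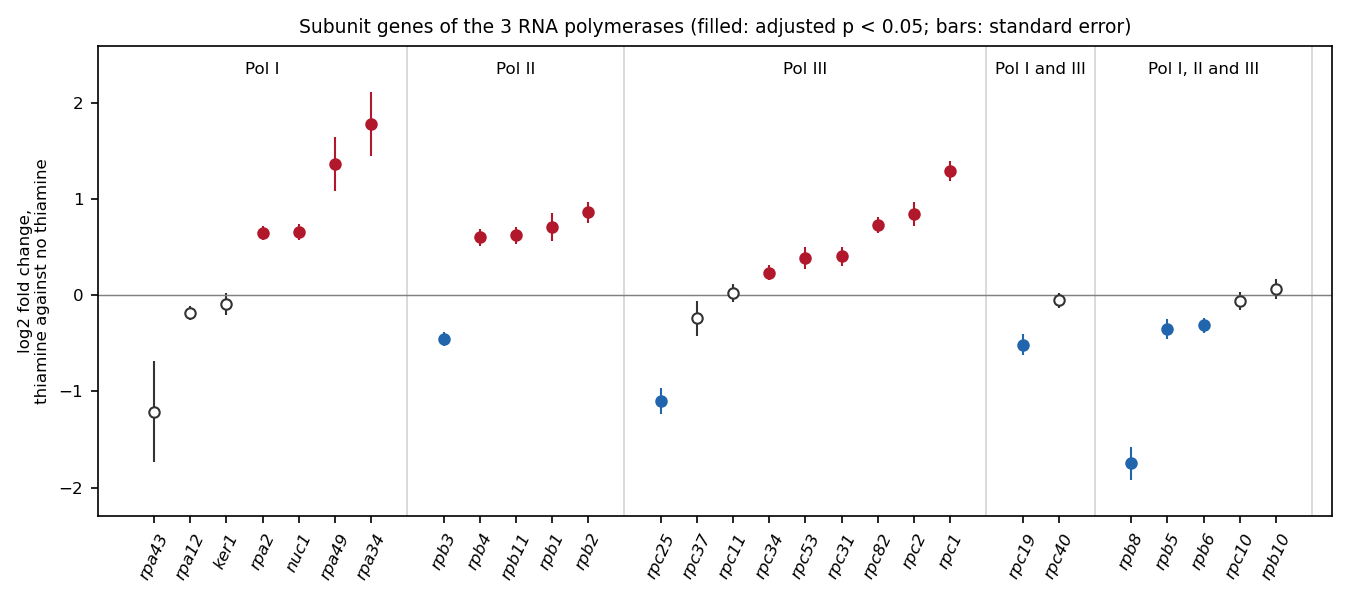
Log2 fold change of tested subunit genes of RNA polymerases I, II and III and of the subunits they share, with the standard error as bars. Filled points passed an adjusted p of 0.05. The genes of the largest subunits (*nuc1*, *rpa2*, *rpb1*, *rpb2*, *rpc1* and *rpc2*), a grouping not set in advance, lie between 0.65 and 1.29. The subunits common to all 3 enzymes lie between -1.75 and 0.07.

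Around the 3 complexes, the general transcription factors included 9 genes that rose and 5 that fell of 18 tested, with *tbp1* (2.42) and *sua7*, which encodes TFIIB (1.21, adjusted p = 2.4e-05), the largest rises. The largest fall there was in *tfa1*, of TFIIE (-0.89, adjusted p = 7.49e-05), which did not pass with library totals (-0.32). The list of elongation factors and factors of the Rpb1 C-terminal domain held 10 genes that rose and 5 that fell of 21. This list counted *bdf2*, a bromodomain gene, which rose by 2.14 (adjusted p = 5.22e-06). Also in it, *rtr1*, a phosphatase of the Rpb1 C-terminal domain, rose by 1.58 (adjusted p = 2.18e-06). *tfs1*, which encodes TFIIS, had -1.42 (adjusted p = 5.03e-05). Of SAGA genes outside the naming rule, 4 rose and 7 fell of 14. Here *gcn5*, the acetyltransferase, had the largest rise (1.74, adjusted p = 2.59e-06) and *spt20*, overlapped over 66.5%, the largest fall (-1.31, adjusted p = 0.00299). The shares called were 77.8%, 71.4% and 78.6% for these 3 lists, beside 69.8% of all genes.

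Fold changes went with transcript length over the whole table. Across 5424 genes Spearman's rho between length and log2 fold change was 0.21, and across the 33 members it was 0.21 (genes share libraries and are not replicates). The median was 0.33 for 952 transcripts of at least 3000 bp and -0.35 for 1021 transcripts under 1000 bp. For the 9 and 12 members in these classes it was 0.59 and -0.21. With the trends of length and GC content removed the values were 0.32 for *rpb1*, 0.60 for *rpb2*, 1.55 for *taf1*, -2.32 for *med18* and -1.63 for *rpb8*, each past the test. The same fit ended the calls of *rpb5* (-0.21), *rpb6* (-0.09) and *med15* (0.25), turned *taf2* (-0.05, not called) and added the call of *taf3* (0.58).

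Genes with much overlap were called less often over the whole table, 47.5% of 1094 genes overlapped over at least 50% of their length (21.1% higher, 26.4% lower) against 75.4% of 4330 others (37.9% and 37.6%). Of the 12 members overlapped over at least 50% of their length, 9 were tested and 4 were called, each of them lower (*rpb3*, *rpb8*, *med7* and *taf51*). Of the 24 overlapped less or not at all, 20 were called, 11 higher and 9 lower. With so few members the classes were not compared further. Levels without thiamine were 0.149 to 23.8 CPM per kb in the first class and 2.78 to 113 CPM per kb in the second. No member had a near-identical copy elsewhere among the genes (0 of 36 at 95% identity over 100 bp).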

How the data were processed

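For 6 libraries of polyadenylated RNA, made with a stranded kit, the deposited values are raw counts of reads on each gene. Each of the 6291 genes has at least 5 counts in total, and 0 columns of counts were left unused. The submitters' processing notes name STAR and DESeq2; versions, counting program and genome build are not given in the sources used here. A second deposited table holds the authors' own DESeq2 comparison (mean level, fold change and its error, test statistic and p-values), which was not used; gene names, types, positions and transcript lengths in bp were taken from it.

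Differences were tested by edgeR 4.0.16 (quasi-likelihood F test, R 4.3.3) with robust dispersion, TMM factors and edgeR's default filter, which kept 5434 genes, with Benjamini-Hochberg adjustment over all of them. The threshold for a call was an adjusted p under 0.05. Fold changes are libraries labelled thiamine over libraries without. CPM are counts per 1000000 of the TMM-scaled library size, and the standard error is the size of the log2 fold change over the root of F. Alternatives were size factors of DESeq2 1.42.0 and its Wald test, upper-quartile factors, library totals with and without ribosomal RNA (the latter added after the data were seen), no filter, a replicate block, loess trends of length and GC content removed (span 0.5, limma 3.58.1), and each library left out, 14 in all. Python 3.11.15, pandas 2.3.3, NumPy 2.4.6 and SciPy 1.17.1 handled the tables.

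Replicates are separate cultures per the labels. Counts of every pair of replicates differed beyond sampling noise. Positions and sequences are those of RefSeq on ASM294v3. Its positions overlapped the deposited ones for 99.984% of 6233 genes, and all 36 members matched. Overlap was taken from deposited positions on either strand. In simulated counts with 200 changed genes, 98 of 98 genes changed by 1 and 102 of 102 changed by 2 on the log2 scale were recovered, with 6 false calls among 5458 genes and a median error of 0.11. In that simulation most genes did not change. All libraries were drawn from the same pooled profile with a fixed dispersion, so their ribosomal RNA shares did not differ as in the data. The recovery thus shows that the test runs as intended on such counts, and cannot speak for calls that depend on the scaling.

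Every member is named. Full values were set for *rpb1*, *rpb2*, the 3 largest called rises and falls of each complex without overlap between groups, and members whose call an alternative changes; in each list the called gene with the largest change is named. Members and lists were chosen with earlier results of these data known. The lists are general transcription factors, elongation and C-terminal domain factors, SAGA, polymerase I, polymerase III, their shared subunits, and Mediator and TFIID subunits with other names. After their descriptions were read, *pmc1*, *ada1* and *elf1* (other functions) and *rpc10* (all 3 polymerases) were taken out.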

Additional observations from a re-analysis of the deposited data

How the results depend on the processing

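The count of called genes was 3794, and the counts of called members were 24 in all, 8 *rpb*, 7 *med* and 9 *taf* genes, and each stayed within 1.5 times of these under all 14 alternatives. The split by direction moved with the scaling, as given with the results. With each library left out in turn, called genes numbered 3440 to 3994 and called members 23 to 25. The value of *nup211* was -0.47 with upper-quartile factors (adjusted p = 0.00686) and -0.60 with length and GC trends removed (adjusted p = 0.00168), and thus passed the test there, while it was 0.40 with library totals (adjusted p = 0.0851) and 0.15 with library totals without ribosomal RNA (adjusted p = 0.267); over all alternatives its adjusted p ranged from 0.00168 to 0.536. Leaving out single libraries kept it between -0.25 and -0.09. With library totals 10 members went from below to above 0: *med6* 0.58 and *taf11* 0.48, which were then called, and *med8* 0.48, *rpb6* 0.27, *rpb5* 0.23, *taf10* 0.16, *taf5* 0.15, *rpb3* 0.13, *taf9* 0.10 and *taf13* 0.00077. *rpb6* was 0.010 with library totals without ribosomal RNA, and *taf2* was -0.048 with length and GC trends removed; the cause was not tested. Upper-quartile factors ended the calls of *med1*, *med13*, *taf2* and *taf7* and added *med6*, *med8* and *taf11*. DESeq2's size factors added *taf3*, and its Wald test *taf4*. *taf4* was also called without replicate 2 of the cultures without thiamine (0.46), and *taf6* without replicate 3 labelled thiamine (0.25). With a replicate block 3719 genes and 24 members were called, and the direction and call of all 33 members stayed as without it; same-numbered libraries did not deviate together (correlations of -0.0049, 0.086 and -0.028; only replicate 2 matched its own number best), so numbers were not treated as pairs. *med11*, *rpb7*, *rpb9* and *taf8* had at most 28 counts in any library.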
